A study of Mus musculus with 7 samples.

Results

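Prostaglandin synthesis, transport and receptor genes were followed in mouse ovarian granulosa cells, the somatic cells around the oocyte. The 10 genes were taken by symbol from a table of 50095 genes, and all 10 were found. They are the cyclooxygenases Ptgs1 and Ptgs2, the prostaglandin E synthases Ptges, Ptges2 and Ptges3, the inactivating dehydrogenase Hpgd, the transporter Slco2a1 and the receptors Ptger2, Ptger4 and Ptgfr. Granulosa cells were taken from ovaries of 3-week-old female mice given 5 IU of PMSG (pregnant mare serum gonadotropin, a hormone that makes follicles grow), followed after 48 h by 5 IU of hCG (human chorionic gonadotropin, which triggers ovulation). The 4 WT libraries were labelled Ezh2flox/+; Cyp19-Cre and the 3 KO libraries Ezh2flox/flox; Cyp19-Cre, where Ezh2 is the catalytic, histone-methylating subunit of Polycomb repressive complex 2. Both groups thus carried a Cre recombinase driven by the aromatase promoter, and the WT group also carried a floxed allele. The comparison asks how these genes differ when Ezh2 is deleted in granulosa cells. Neither the interval from hCG to collection nor the animals behind each library are given in the sources used here, so p-values measure only the spread between these libraries, which may be technical.

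Prostaglandins are lipid signals made from arachidonic acid, which phospholipases release from membranes. Cyclooxygenases turn it into PGH2, terminal synthases turn PGH2 into PGE2, PGF2alpha and other products, and these act on G protein-coupled receptors. In the ovary the ovulatory surge of luteinizing hormone induces Ptgs2 in granulosa cells, and in mice loss of Ptgs2 or of the PGE2 receptor Ptger2 impairs expansion of the cumulus and ovulation. The transporter Slco2a1 takes prostaglandins up from outside the cell, and Hpgd then oxidizes them, which ends the signal.

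Libraries and labels were compared first. Ezh2 stood at 20.5 to 25.3 FPKM in WT libraries and at 17.8 to 26.1 FPKM in KO-labelled libraries, with the highest value in KO3, and limma did not call it (log2 difference -0.15, SE 0.14, adjusted p = 0.432). The levels were of the whole gene, which includes exons outside a deleted part, so Ezh2 did not check the labels and every direction below follows them. WT4 carried the same treatment label as the KO libraries. It was kept in WT by its title and genotype label, and was left out in an alternative. The granulosa markers, 10 genes that define the labelled cell type, were all present, with a summed level of 4117 to 5825 FPKM in WT and 2743 to 3815 FPKM in KO-labelled libraries, and 6 of 10 were called lower, against 16.7% of all genes tested. Inha, which made up most of that sum, was not called (limma adjusted p = 0.0799), nor were Foxl2, Amh and Inhba. Summed markers of other cell types were higher in KO-labelled libraries without overlap for macrophages (16.2 to 27.3 against 51.0 to 110.9 FPKM, 10 of 11 tested called higher, against 7.91% of all genes tested), endothelium (11.7 to 25.5 against 47.2 to 67.5 FPKM, 9 of 9), smooth muscle and pericytes (60.0 to 109.7 against 133.5 to 383 FPKM, 5 of 8) and surface epithelium (32.8 to 45.3 against 72.5 to 158 FPKM, 10 of 10). Platelet markers summed to 2.04 to 3.68 and 4.36 to 9.37 FPKM (1 of 2 tested called higher), with Ppbp, Treml1 and Tubb1 at 0 in every WT library. The called gene was Pf4 (0.250 to 1.28 against 1.71 to 6.90 FPKM), and the other platelet markers did not share its rise. Itga2b was not called, and Gp1bb, Gp1ba and Gp6 overlapped between the groups. Gp9 was lower in KO-labelled libraries without overlap (0.147 to 0.425 against 0 to 0.136 FPKM). Of the markers called higher, 4 of macrophages, 3 of endothelium and 1 each of smooth muscle, platelets (Pf4) and surface epithelium had WT means under 1 FPKM and were tested only because of the KO-labelled libraries, so the filter favoured their differences. Stroma (50.2 to 136 against 111.5 to 193 FPKM, 3 of 10 higher), theca (755 to 1440.0 against 928 to 1063 FPKM, 3 of 8 higher and 1 lower) and oocyte markers (364 to 629 against 552.5 to 655 FPKM, 1 of 8 higher) overlapped between the groups. Hsd3b1, which granulosa cells also express, made up most of the theca sum, while Cyp17a1 (22.4 to 71.4 against 73.0 to 156 FPKM) and Insl3 (0.318 to 1.36 against 4.59 to 14.6 FPKM), which define theca cells, were called higher without overlap. Of the other theca markers, Aldh1a1 was called higher and Ptch1 lower (9.19 to 13.3 against 3.96 to 5.39 FPKM), also without overlap. Hhip, Lhcgr, Hsd3b1 and Fbln5 were not called. The part of these shifts in the results below was not tested, and in bulk RNA fewer cells of a type and less RNA per cell cannot be told apart.

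The promoters of Ptgs2, Ptges and Hpgd are shown because Ptgs2 varied most between libraries in absolute level, and Ptges and Hpgd were the members that fell. The bases are RefSeq's, of build GRCm38.p6, 5′ to 3′ on the strand of the gene, and cover the 250 bases before the start annotated by RefSeq. The loci given below are GENCODE's, and their starts differ from RefSeq's for Ptges, whose window lies inside its locus, and for Hpgd. All 10 members had an entry. Capitals mark matches on either strand to 5 motifs searched in the 300 bases from 250 before to 50 after the start, as follows. The E-box was searched as CACGTG. The cAMP response element (CRE) was searched as TGACGT and the C/EBP motif as TTGCNNAA. The TATA motif was searched as TATAAA, and the GC box, a motif of Sp-family factors, as GGGCGG.
Ptgs2, chr1:150099781-150100030, plus strand: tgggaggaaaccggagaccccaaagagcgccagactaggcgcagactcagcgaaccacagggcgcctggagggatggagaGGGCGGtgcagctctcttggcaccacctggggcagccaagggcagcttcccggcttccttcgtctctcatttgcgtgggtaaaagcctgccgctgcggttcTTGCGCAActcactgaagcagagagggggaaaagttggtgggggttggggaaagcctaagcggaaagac
Ptges, chr2:30903298-30903547, minus strand: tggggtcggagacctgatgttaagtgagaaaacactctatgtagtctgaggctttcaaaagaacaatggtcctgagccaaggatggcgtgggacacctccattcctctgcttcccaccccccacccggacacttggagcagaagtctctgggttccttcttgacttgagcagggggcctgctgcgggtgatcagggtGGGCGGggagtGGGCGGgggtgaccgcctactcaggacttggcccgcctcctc
Hpgd, chr8:56294302-56294551, plus strand: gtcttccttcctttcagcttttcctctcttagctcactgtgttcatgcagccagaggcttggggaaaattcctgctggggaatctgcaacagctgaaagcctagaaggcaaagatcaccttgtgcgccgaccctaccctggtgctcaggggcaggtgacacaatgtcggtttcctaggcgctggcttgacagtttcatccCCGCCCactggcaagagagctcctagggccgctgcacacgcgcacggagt
A further stretch of Ptgs2, which begins 5 bases into the annotated transcript, holds a CRE match and an E-box match that overlap.
Ptgs2, chr1:150100035-150100060, plus strand: tcaccactACGTCACGTGgagtccgc

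Of 27025 promoters of this length, 7.24% held the E-box, 7.64% the CRE, 10.8% the C/EBP motif, 14.2% TATAAA and 35.9% the GC box. Ptgs2 held the E-box, the CRE, the palindrome TTGCGCAA, which begins 69 bases before the start, and a GC box. Ptges held 2 GC boxes, which begin 53 and 42 bases before the start, and none of the other 4 motifs in this window. Hpgd held a GC box match on the opposite strand and TATAAA, which begins at base 5 of the annotated transcript. These matches describe the sequences and do not show binding.

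Levels are in FPKM, fragments scaled to transcript length and library depth, which allows genes of different length to be set side by side. In WT libraries the mean levels ran in the order Ptgs2, Ptges3, Ptges, Hpgd, Ptger4, Ptgfr, Slco2a1, Ptges2, Ptgs1 and Ptger2, from 133 ± 65.9 (SD, n = 4) to 0.444 ± 0.119 FPKM (SD, n = 4). The WT ranges of neighbours overlapped for Ptgs2 and Ptges3, Ptges3 and Ptges, Ptgfr and Slco2a1, and Ptgs1 and Ptger2. Genes whose average over the 7 libraries reached 1 FPKM were tested. These included 8 members, while Ptgs1 and Ptger2 fell below that minimum.

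**Figure D1:**
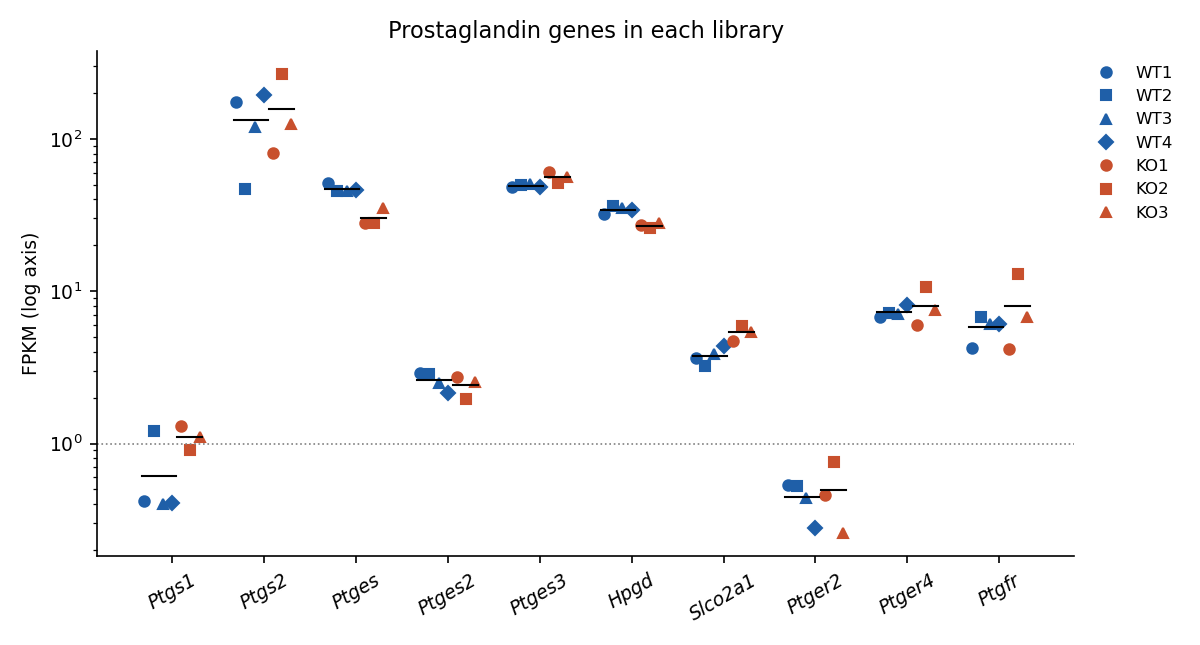
FPKM (log axis) of the 10 members in each of 4 WT (blue) and 3 KO-labelled (orange) libraries, with black bars at group means and a dotted line at 1 FPKM, the minimum mean for testing. Ptges lies between 45.3 and 51.3 in WT and between 28.0 and 34.96 in KO-labelled libraries, while Ptgs2 spreads from 46.9 to 195 and from 81.3 to 268.

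Among the 8 tested members, limma called Ptges and Hpgd lower and Slco2a1 higher in KO-labelled libraries at an adjusted p under 0.05. Over all 13850 genes tested, 24.6% were called, 7.91% higher and 16.7% lower, and with 8 members tested these 3 calls are not read as a result about the group. The libraries of the groups did not overlap for 4 of the 8 (Ptges, Hpgd, Slco2a1 and Ptges3), against 36.3% of all genes tested (11.5% with KO-labelled libraries higher, 24.8% with them lower). Differences are on the log2(FPKM + 1) scale, which understates the change of low genes. The median difference over all genes was -0.08, and -0.21 when every library was scaled to an equal sum of FPKM. It was 0.007 with median-of-ratios scaling and -0.023 with upper-quartile scaling.

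**Figure D2:**
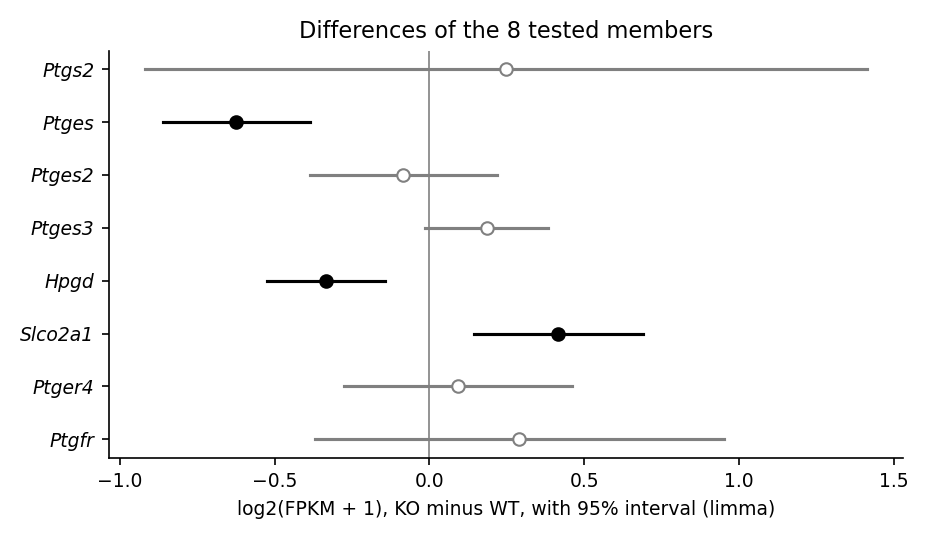
Log2(FPKM + 1) of KO-labelled minus WT libraries for the 8 tested members, with 95% intervals from limma. Filled points (Ptges, Hpgd, Slco2a1) had an adjusted p under 0.05, and the interval of Ptgs2, from -0.92 to 1.41, is the widest of the 8.

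Of the cyclooxygenases, Ptgs2, the form induced at ovulation, was the abundant one, and it varied more within each group than between them. Ptgs2 (ENSMUSG00000032487, GRCm38 chromosome 1, 150100031 to 150108227, plus strand) measured 173, 46.9, 119 and 195 FPKM in WT1, WT2, WT3 and WT4, against 81.3, 268 and 124 FPKM in KO1, KO2 and KO3. The groups overlapped, with the lowest value in WT2 and the highest in KO2. The highest library held 5.70 times the level of the lowest. The group means of 133 ± 65.9 (SD, n = 4) and 158 ± 97.5 FPKM (SD, n = 3) differed by 0.25 on the log2 scale (SE 0.52, 95% interval -0.92 to 1.41; adjusted p = 0.746 by limma). The interval includes a fall of 0.92 and a rise of 1.41, and the sign turned to -0.19 without WT2 and to -0.22 without KO2.

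Ptgs1, the constitutive cyclooxygenase of platelets and many other cells (ENSMUSG00000047250, chromosome 2, 36230426 to 36252272, plus strand), was near the floor. It measured 0.423, 1.20, 0.399 and 0.409 FPKM in WT1, WT2, WT3 and WT4, against 1.30, 0.900 and 1.10 FPKM in KO1, KO2 and KO3. WT2 lay among the KO-labelled libraries, while the other WT libraries lay below all of them. An exact permutation test (two-sided by doubling the smaller tail, 35 splits of 7 libraries) gave p = 0.171. With so few splits this p cannot fall below 0.05, so the test could not have reached that level for any arrangement of the libraries. With no filter on low values the log2 difference was 0.41 (SE 0.19, limma adjusted p = 0.267). In WT2, the WT library with the highest Ptgs1, the granulosa (5825 FPKM), theca, stromal, smooth muscle, surface epithelial and endothelial marker sums were the highest of the WT group. Its macrophage (21.9 FPKM) and platelet sums (2.81 FPKM) were not, and its oocyte sum was the lowest. The ratio of Ptgs2 to Ptgs1 was 410, 39.0, 298 and 476 in WT1 to WT4 and 62.4, 297 and 113 in KO1 to KO3, so Ptgs2 exceeded Ptgs1 in every library.

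The 7 libraries were then searched for genes with a profile like that of Ptgs2. Among 8020 genes averaging 5 FPKM or more, likeness was the root mean square difference between log2(FPKM + 1) profiles after the mean of each over 7 libraries was taken off. The 5 nearest were Tnfaip6 (0.21), Ptx3 (0.21), Enpp3 (0.23), Btc (0.30) and Pgr (0.33), where the own root mean square of Ptgs2 about its mean was 0.77. Tnfaip6 and Ptx3 build and stabilise the hyaluronan matrix of the cumulus, Btc is an EGF-like ligand, Pgr is the progesterone receptor and Enpp3 is an ectonucleotidase. Tnfaip6 measured 331, 104, 223 and 373 FPKM in WT1, WT2, WT3 and WT4, against 222, 449 and 238 FPKM in KO1, KO2 and KO3. Ptx3 measured 50.2, 11.1, 29.0 and 41.9 FPKM in WT1, WT2, WT3 and WT4, against 27.6, 64.5 and 37.0 FPKM in KO1, KO2 and KO3. All 5 were lowest in WT2 and highest in KO2, as Ptgs2 was, which their choice by likeness to Ptgs2 largely fixed. The list of cumulus genes linked to Ptger2 (Tnfaip6, Has2, Ptx3, Areg, Ereg and Btc), which holds 3 of these 5, had 0 of 6 members called in either direction and a median log2 difference of 0.28.

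**Figure D3:**
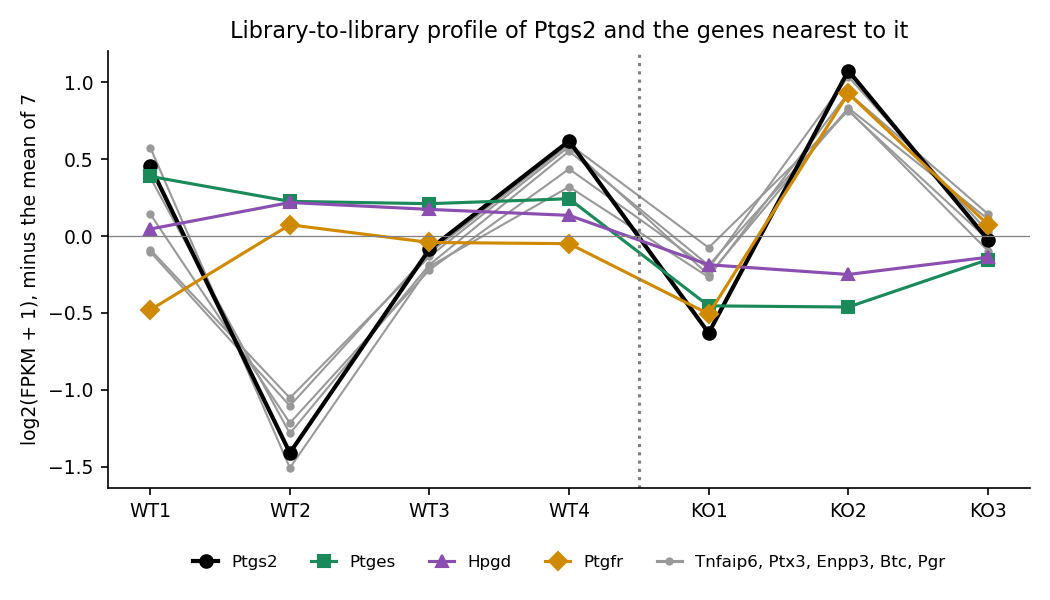
Log2(FPKM + 1) minus its mean over 7 libraries, by library, for Ptgs2 (black), its 5 nearest genes (grey), Ptges (green), Hpgd (purple) and Ptgfr (orange), with a dotted line between WT and KO-labelled libraries. Ptgs2 and the grey genes dip in WT2 and peak in KO2, while Ptges and Hpgd step down between the groups.

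Of the prostaglandin E synthases, Ptges fell while Ptges2 and Ptges3 were not called. Ptges, the inducible microsomal synthase that works together with Ptgs2 (ENSMUSG00000050737, chromosome 2, 30889471 to 30929863, minus strand), measured 51.3, 45.8, 45.3 and 46.3 FPKM in WT1, WT2, WT3 and WT4, against 28.2, 28.0 and 34.96 FPKM in KO1, KO2 and KO3. Every KO-labelled library lay below every WT library, and the means of 47.2 ± 2.81 (SD, n = 4) and 30.4 ± 3.95 FPKM (SD, n = 3) give a KO to WT ratio of 0.644. The log2 difference was -0.62 (SE 0.10, 95% interval -0.86 to -0.39, limma adjusted p = 0.00701). In the same libraries 6 of 10 granulosa markers were called lower, as given above. The call held in all 14 alternatives, with adjusted p from 0.00382 to 0.0288.

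The steady level of Ptges contrasts with the spread of Ptgs2. Within WT its coefficient of variation was 5.95% against 49.4% for Ptgs2, and in WT2, where Ptgs2 was lowest, Ptges was at 45.8 FPKM. The ratio of Ptgs2 to Ptges ran from 1.03 in WT2 to 4.20 in WT4 and from 2.88 in KO1 to 9.54 in KO2, so the groups overlapped. Ptges made up 45.9% to 50.01% of the summed FPKM of the 3 prostaglandin E synthases in WT libraries and 30.7% to 37.3% in KO-labelled libraries.

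Ptges3, the co-chaperone p23 of Hsp90 that also has cytosolic prostaglandin E synthase activity (ENSMUSG00000071072, chromosome 10, 128058954 to 128077272, plus strand), measured 48.4, 49.98, 50.8 and 48.0 FPKM in WT1, WT2, WT3 and WT4, against 60.9, 51.6 and 56.3 FPKM in KO1, KO2 and KO3. The KO-labelled libraries lay above the WT libraries, KO2 only just, and the log2 difference of 0.19 (SE 0.09, 95% interval -0.01 to 0.38) missed the threshold (limma adjusted p = 0.149). With median-of-ratios scaling Ptges3 was called higher (log2 difference 0.29, limma adjusted p = 0.0374). A processed pseudogene of Ptges3 is annotated, and fragments shared with it could affect the level. Ptges2, a membrane-associated synthase (chromosome 2, 32395896 to 32405772, plus strand), ranged from 2.15 to 2.90 FPKM in WT and from 1.96 to 2.73 FPKM in KO-labelled libraries. Its log2 difference was -0.08 (SE 0.13, 95% interval -0.39 to 0.22, limma adjusted p = 0.663), and 0.012 without KO2.

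Hpgd was called lower and Slco2a1 higher, the latter with a call that most alternatives did not keep. Hpgd, the NAD-dependent hydroxyprostaglandin dehydrogenase (ENSMUSG00000031613, chromosome 8, 56294585 to 56321043, plus strand), measured 31.9, 36.1, 34.96 and 34.003 FPKM in WT1, WT2, WT3 and WT4, against 27.0, 25.8 and 28.0 FPKM in KO1, KO2 and KO3. The groups did not overlap, and the means of 34.2 ± 1.77 (SD, n = 4) and 26.9 ± 1.09 FPKM (SD, n = 3) give a ratio of 0.787. The log2 difference was -0.33 (SE 0.08, 95% interval -0.53 to -0.14, limma adjusted p = 0.0232). The call ended in 5 of 14 alternatives, among them without WT2 (limma adjusted p = 0.0591), WT3 (0.0770) or KO1 (0.0648) and with median-of-ratios scaling (0.0547), and over all alternatives adjusted p ran from 0.00843 to 0.0770.

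Slco2a1, the prostaglandin transporter, which endothelium also expresses (ENSMUSG00000032548, chromosome 9, 102988712 to 103096002, plus strand), measured 3.62, 3.22, 3.89 and 4.36 FPKM in WT1, WT2, WT3 and WT4, against 4.74, 5.95 and 5.41 FPKM in KO1, KO2 and KO3. Every KO-labelled library lay above every WT library, with KO1 near WT4. The means were 3.77 ± 0.480 (SD, n = 4) and 5.36 ± 0.602 FPKM (SD, n = 3), and the log2 difference was 0.42 (SE 0.12, 95% interval 0.14 to 0.69, limma adjusted p = 0.0358). In the same libraries the summed endothelial markers went from 11.7 to 25.5 FPKM in WT to 47.2 to 67.5 FPKM, and KO2, the library with the highest Slco2a1, held the lowest of these 3 KO-labelled sums. The Slco2a1 call was lost in 9 of 13 alternatives, among them without WT1 (limma adjusted p = 0.0619), WT2 (0.0815), WT3 (0.0797), KO1 (0.0590), KO2 (0.0914) or KO3 (0.0823), with no filter (0.0812) and when sums of FPKM were made equal (0.118), and over all alternatives adjusted p ran from 0.0255 to 0.118.

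Ptges and Hpgd, which make and inactivate PGE2, both fell. The ratio of Ptges to Hpgd was 1.61, 1.27, 1.30 and 1.36 in WT1 to WT4 and 1.04, 1.09 and 1.25 in KO1 to KO3, which places KO3 just below WT2. The ratio of Ptgs2 to Hpgd ran from 1.30 to 5.72 in WT and from 3.01 to 10.4 in KO-labelled libraries, with wide overlap.

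**Figure D4:**
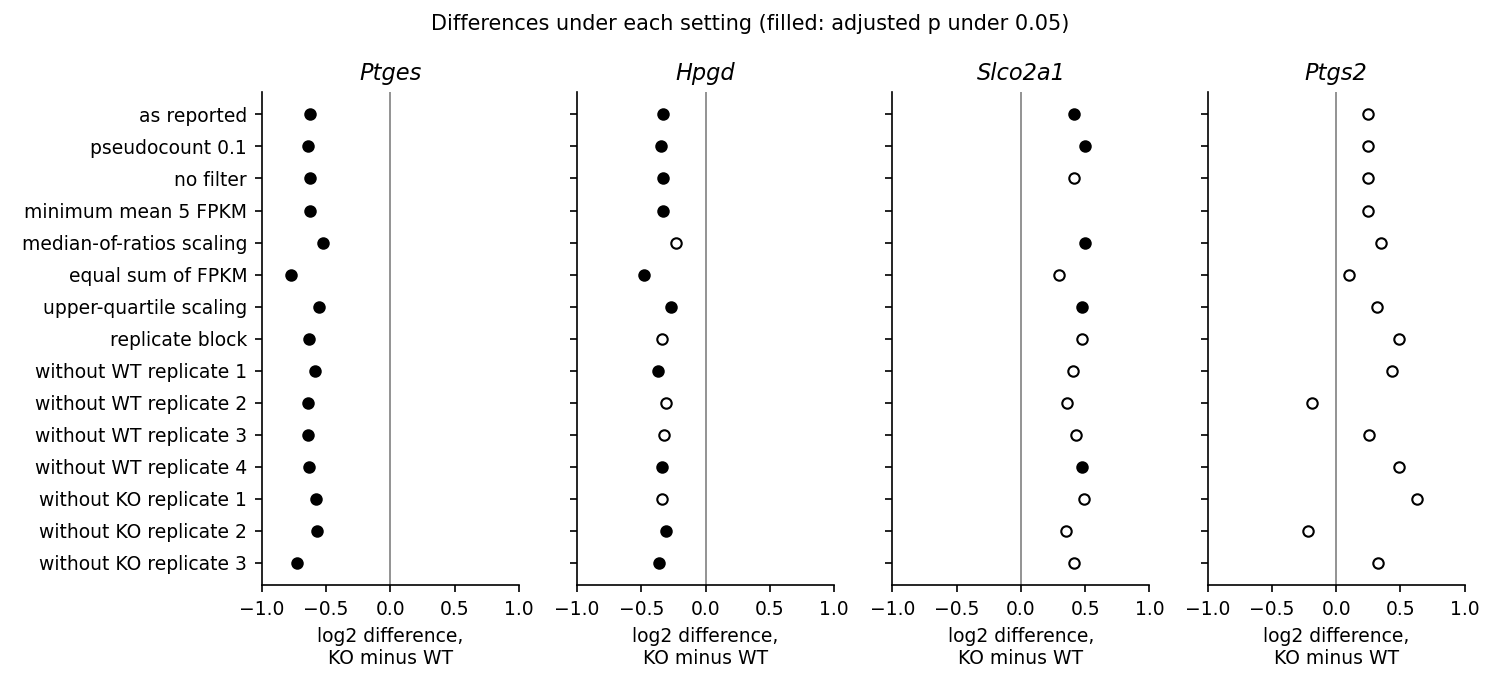
Log2 difference, KO-labelled minus WT, of Ptges, Hpgd, Slco2a1 and Ptgs2 as reported and under each alternative, filled where the adjusted p was under 0.05; a missing point means that the gene fell below that minimum. Ptges is filled in every row, Hpgd in all but 5 alternatives and Slco2a1 in 4 alternatives, while Ptgs2 crosses 0 without WT2 and without KO2.

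Neither tested receptor, Ptger4 or Ptgfr, was called, Ptger2 lay below the minimum for testing, and KO2 was the highest library for each. Ptger4, a PGE2 receptor coupled to cAMP (ENSMUSG00000039942, chromosome 15, 5206661 to 5244187, minus strand), measured 6.81, 7.24, 7.09 and 8.08 FPKM in WT1, WT2, WT3 and WT4, against 5.97, 10.7 and 7.52 FPKM in KO1, KO2 and KO3. KO1 was the lowest and KO2 the highest of all 7 libraries. Its log2 difference was 0.09 (SE 0.16, 95% interval -0.27 to 0.46, limma adjusted p = 0.696), which turned to -0.11 without KO2 and to -0.038 with an equal sum of FPKM. Part of Ptger4 lies over Ttc33 on the opposite strand, which stood at 5.76 to 8.003 FPKM, and strand use in counting is not given in the sources used here, so reads of the overlap cannot be told apart.

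Ptgfr, the PGF2alpha receptor that acts in regression of the corpus luteum (ENSMUSG00000028036, chromosome 3, 151796502 to 151837630, minus strand), measured 4.26, 6.73, 6.13 and 6.09 FPKM in WT1, WT2, WT3 and WT4, against 4.17, 13.0 and 6.74 FPKM in KO1, KO2 and KO3. KO2 was the highest by far, and the remaining KO-labelled libraries lay at both ends of the WT range. The log2 difference of 0.29 (SE 0.29, 95% interval -0.37 to 0.95; adjusted p = 0.482 by limma) turned to -0.09 without KO2. Ptger2, the cAMP-coupled PGE2 receptor of cumulus cells (ENSMUSG00000037759, chromosome 14, 44988195 to 45003820, plus strand), was the least abundant member, at 0.278 to 0.536 FPKM in WT and 0.258 to 0.759 FPKM in KO-labelled libraries. A two-sided exact permutation test gave p = 0.857 for it, and with no filter its log2 difference was 0.04 (SE 0.13, limma adjusted p = 0.887). Per length, Ptger4 exceeded Ptger2 in every library, by 12.7 to 29.0 times in WT and by 13.0 to 29.2 times in KO-labelled libraries. KO2 was the highest library for Ptgs2, Slco2a1, Ptger2, Ptger4 and Ptgfr.

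Beyond these members, 64 other genes of eicosanoid metabolism and response were in the table, in 6 lists, and 37 were tested. Of these, limma called 7 higher and 3 lower, with a median log2 difference of -0.01, against -0.08 and calls of 7.91% higher and 16.7% lower over all genes tested. Pla2g5 and Mgll had WT means of 0.544 and 0.535 FPKM and passed the minimum only through the KO-labelled libraries, so their differences were favoured by the filter.

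Among 11 tested genes of arachidonate release (median -0.05), 2 were higher and 1 lower. Pla2g4a, the cytosolic phospholipase that frees arachidonic acid, measured 23.4, 23.5, 25.4 and 28.5 FPKM in WT1, WT2, WT3 and WT4, against 12.2, 23.1 and 14.5 FPKM in KO1, KO2 and KO3. KO2 lay just under the WT range and the other KO-labelled libraries well below it (log2 difference -0.62, SE 0.19, limma adjusted p = 0.0406). This call was lost under 10 of 14 alternatives, among them each single library left out except KO2, with adjusted p from 0.0550 to 0.140 where it was lost. The monoglyceride lipase Mgll rose from 0.535 ± 0.0712 (SD, n = 4) to 3.48 ± 0.834 FPKM (SD, n = 3; log2 difference 1.53, limma adjusted p = 0.00234) and the secreted phospholipase Pla2g5 from 0.544 ± 0.271 to 1.74 ± 0.252 FPKM (log2 difference 0.84, limma adjusted p = 0.0117). Pla2g4c was at 27.5 ± 4.36 and 30.9 ± 3.17 FPKM and the phospholipase-activating Plaa at 27.0 ± 1.53 and 26.1 ± 1.73 FPKM in WT and KO-labelled libraries, and neither was called.

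Other terminal synthases, listed together with related aldo-keto and carbonyl reductases, had 3 of 9 tested genes higher and 0 lower (median 0.23). The aldo-keto reductase Akr1b8 measured 15.9, 13.0, 15.7 and 16.5 FPKM in WT1, WT2, WT3 and WT4, against 88.5, 35.5 and 63.6 FPKM in KO1, KO2 and KO3, well apart in every library (log2 difference 1.87, SE 0.26, limma adjusted p = 0.00424). The carbonyl reductase Cbr3 rose from 1.61 ± 0.460 to 6.01 ± 2.77 FPKM (log2 difference 1.37, limma adjusted p = 0.00907). Akr1b7, an aldo-keto reductase with PGF2alpha synthase activity in mouse, measured 9.92, 23.4, 14.9 and 11.3 FPKM in WT1, WT2, WT3 and WT4, against 62.6, 19.3 and 57.9 FPKM in KO1, KO2 and KO3. Here KO2 lay below WT2, and the call (log2 difference 1.49, limma adjusted p = 0.0297) was lost without WT1, WT3, WT4, KO1 or KO3 and with no filter, where adjusted p lay between 0.0577 and 0.112. Akr1b3, the most abundant of the list, was at 85.6 ± 9.32 and 99.9 ± 5.70 FPKM and was not called (limma adjusted p = 0.149). In KO2, the lowest KO-labelled library for Akr1b8, Akr1b7 and Cbr3, the macrophage, endothelial, smooth muscle, platelet, surface epithelial, stromal and oocyte sums were the lowest of the KO-labelled group, and the granulosa (3815 FPKM) and theca sums (1063 FPKM) the highest. The theca sum of KO3 was close at 1060 FPKM, and Hsd3b1 made up most of both. Within the KO-labelled group Cyp17a1 (73.0 FPKM), Insl3 (4.59 FPKM), Aldh1a1 (63.4 FPKM) and Fbln5 (1.52 FPKM) were lowest in KO2. Hsd3b1, Lhcgr and Hhip were highest there, and Ptch1 lay between. The part of these cell types in the reductase levels was not tested.

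Of the other inactivating enzymes and transporters 0 of 5 tested genes were higher and 2 lower (median -0.25). Zadh2, a prostaglandin reductase that acts on the oxidized products of Hpgd, measured 39.4, 38.5, 36.8 and 34.3 FPKM in WT1, WT2, WT3 and WT4, against 26.7, 24.3 and 27.8 FPKM in KO1, KO2 and KO3. The groups did not overlap (log2 difference -0.49, SE 0.09, limma adjusted p = 0.00912), and the call held under all 14 alternatives. Slco3a1, an organic anion transporter that carries prostaglandins, was at 38.0 ± 1.46 and 28.3 ± 2.98 FPKM (log2 difference -0.42, limma adjusted p = 0.0171), and was not called without WT3 or KO1 (adjusted p = 0.0529 to 0.0559).

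Of the other prostanoid receptors 3 were tested and 0 called. Ptger1 was at 3.46 ± 0.384 and 3.25 ± 0.694 FPKM and the receptor-associated Ptgfrn at 7.39 ± 0.964 and 6.17 ± 1.10 FPKM. Of the leukotriene and lipoxygenase genes 3 of 13 were tested and 2 were higher, both genes that leukocytes express. Genes of this list below the minimum went both ways. Mean levels in WT and KO-labelled libraries were lower in the latter for Alox5 (0.156 and 0.0612 FPKM) and Alox15 (0.291 and 0.0398 FPKM). They were higher for Alox12 (0.232 and 0.760 FPKM) and Ltb4r2 (0.0409 and 0.442 FPKM). The arachidonate-presenting Alox5ap was at 1.09 ± 0.249 and 2.97 ± 1.15 FPKM (limma adjusted p = 0.0181, not called without WT3, KO1 or KO3 or with no filter, where it ran from 0.0509 to 0.0710). The leukotriene synthase Ltc4s was at 1.52 ± 0.899 and 3.26 ± 0.576 FPKM (limma adjusted p = 0.0398) and kept its call without WT1 but lost it without any other single library and with no filter, with adjusted p up to 0.139. In the same libraries macrophage markers were higher in 10 of 11 tested, against 7.91% of all genes tested, and the filter favoured 4 of these as given above. Lta4h, the most abundant of the list, was at 19.0 ± 0.810 and 17.4 ± 2.92 FPKM and was not called. The cumulus genes of highest mean, Tnfaip6 and Areg, were at 258 ± 120.4 and 303 ± 127 FPKM and at 276 ± 45.9 and 332 ± 89.9 FPKM, and neither was called.

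**Figure D5:**
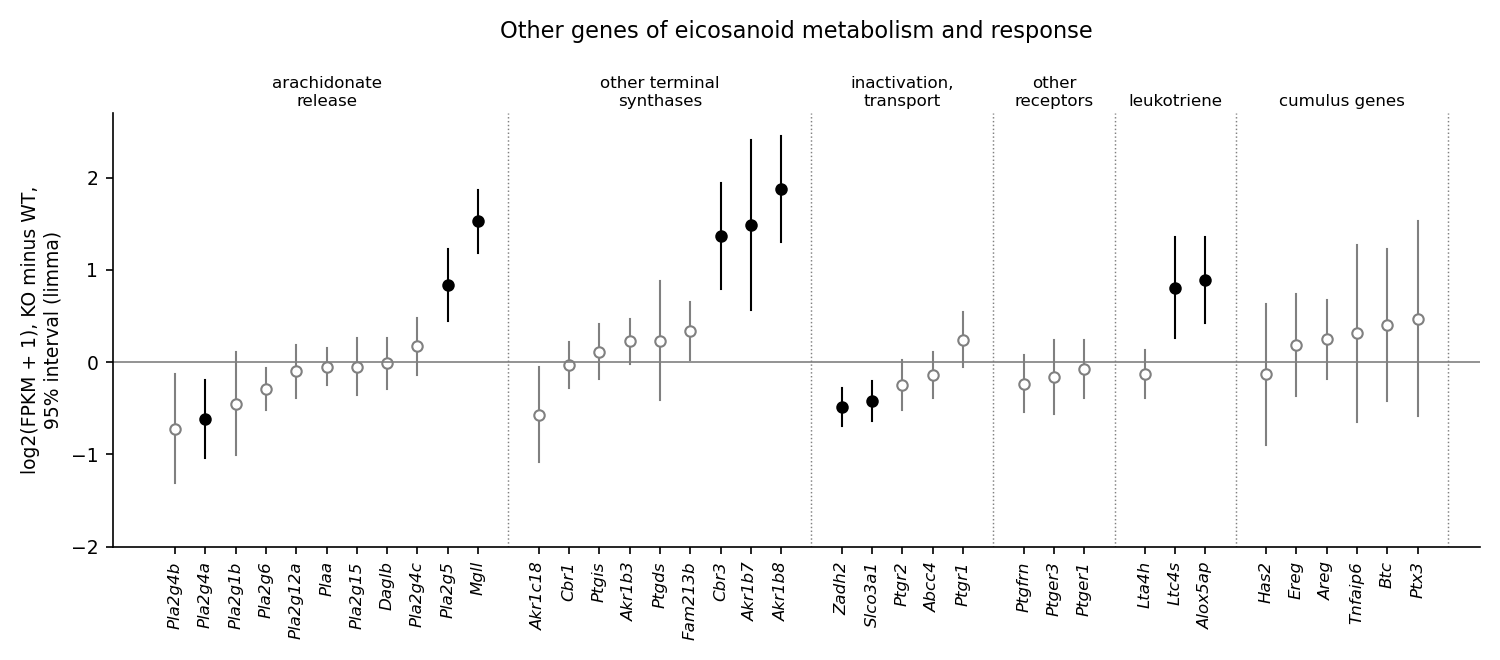
Log2(FPKM + 1) of KO-labelled minus WT libraries with 95% limma intervals for the 37 tested genes of 6 lists, filled where the adjusted p was under 0.05. Of the filled points 7 lie above 0, led by Akr1b8 at 1.87, and 3 below it, led by Pla2g4a at -0.62.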

How the data were processed

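RNA from 7 granulosa cell libraries (4 WT, 3 KO) was read as pairs after poly(A) selection with NEBNext Ultra reagents, per the labels' protocols. The authors deposited a table of FPKM values. No label or header names that unit, and it was inferred from values that are not whole and whose sums differ. These sums ran from 372085 to 390185 per library in WT and from 400522 to 450102 in KO-labelled libraries, without overlap. The submitters' processing notes name HISAT2, HTSeq 0.12.4, FastQC, Trimmomatic, edgeR, DESeq2 and mm10, and which of them made the FPKM is not given in the sources used here. Only 20.2% to 25.8% of low values in genes with 1 transcript lay within 2% of whole multiples of a fragment, so counts were not recovered, depth is unknown and no counting interval is given.

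Log2(FPKM + 1) was fitted for 13850 genes that averaged 1 FPKM or more by limma-trend (limma 3.58.1, R 4.3.3), KO minus WT, with Benjamini-Hochberg adjustment over all of them and calls at 0.05. The fit was tested on simulated data. Loci come from GENCODE vM21 (GRCm38) and promoters from RefSeq (GRCm38.p6). Members and lists were chosen with earlier results of these data known. Named were all members, every called gene and the 2 of highest mean in each pathway list, and the 5 genes nearest to Ptgs2, besides Has2 and Ereg as members of their list and markers. Alox5, Alox15, Alox12 and Ltb4r2 were named as genes of their list below the minimum. A gene of the macrophage list was matched by Ensembl identifier under an older symbol. Alternatives were a pseudocount of 0.1, no filter, a minimum mean of 5 FPKM, 3 scalings, a replicate block and each library left out.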

Additional observations from a re-analysis of the deposited data

Results flagged for a closer look

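Ptgs1 in WT2, at 1.20 FPKM, stood apart from the other WT libraries, which lay between 0.399 and 0.423 FPKM; its gap to the next library was 0.971 of the group's range, above Dixon's 95% critical value for 4 samples. All 10 members were examined this way in WT, and chance alone gives such a mark in about 1 of 20 groups. WT2 also held the lowest Ptgs2 of all libraries, 46.9 FPKM. Its granulosa, theca, stromal, smooth muscle, surface epithelial and endothelial marker sums (5825, 1440.0, 136, 109.7, 45.3 and 25.5 FPKM) were the highest among WT libraries, its macrophage and platelet sums (21.9 and 2.81 FPKM) were not, its oocyte sum (364 FPKM) was the lowest, and their part in the Ptgs1 value was not tested.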

How the results depend on the processing

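Of the members, Ptges was called lower in all 14 alternatives (log2 difference -0.77 to -0.52), Hpgd in 9 of 14 and Slco2a1 higher in 4 of 13, and for none of these 3 did the direction turn. Members called lower numbered 2 as reported, 1 with median-of-ratios scaling and with the replicate block, and 1 to 2 when single libraries were left out. Members called higher numbered 1 as reported, 2 with median-of-ratios scaling (Ptges3 and Slco2a1), 0 with no filter, with a minimum mean of 5 FPKM (Slco2a1 not tested), with equal FPKM sums and with the replicate block, and 0 to 1 when single libraries were left out. When single libraries were left out, the log2 difference ranged over 0 for Ptgs2 (-0.22 without KO2 and -0.19 without WT2, up to 0.63), Ptges2 (-0.15 to 0.012), Ptger4 (-0.11 to 0.27), Ptgfr (-0.091 to 0.63), Ptger1 (-0.18 to 0.059) and Tnfaip6 (-0.070 without WT2 and -0.0085 without KO2, up to 0.54). The sign also turned for Ptger4 with equal FPKM sums (-0.038), for Plaa with median-of-ratios (0.053) and upper-quartile scaling (0.017) and for Ptger1 with median-of-ratios scaling (0.0028). Pathway genes called higher numbered 7, against 2 with a minimum mean of 5 FPKM, where fewer genes were tested, and 3 to 6 when single libraries were left out; those called lower numbered 3, against 7 with equal FPKM sums and 1 to 3 when single libraries were left out. Over all genes 3410 were called, 1865 with no filter and 1293 to 3369 when single libraries were left out, and higher genes were 1095 of these calls, 1598 of 3073 with median-of-ratios scaling, 1429 of 3221 with upper-quartile scaling and 847 of 4794 with equal FPKM sums. The causes were not tested. The labels give both groups replicate numbers 1 to 3, but same-numbered libraries did not all deviate together (correlations across genes of 0.193, -0.11 and 0.071), and KO2 correlated best with WT4 (0.261), so the numbers were not taken as pairs. With the replicate block 2671 genes were called, Ptges had a log2 difference of -0.63 (adjusted p = 0.0253), and Hpgd (0.0610), Slco2a1 (0.0563), Pla2g4a (0.0781), Akr1b7 (0.1004) and Alox5ap (0.0632) were not called; it ended none of the other calls of members or pathway genes. Precision is limited by 4 and 3 libraries and, for Ptgs1 and Ptger2, by levels near 1 FPKM or below.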
